A study of Mus musculus with 531 samples.

Results

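The 10 genes Dazl, Mael, Asz1, Tuba3a, Tuba3b, Slc25a31, Hormad1, Ddx4, Sycp3 and Tex19.1 are read mainly in germ cells of the adult and are known as targets of silencing by promoter DNA methylation. They were chosen by name, with earlier results of these data known, and all 10 were found among the 22084 genes of the count table. Their reads were followed in single cells from mouse embryos of the strain C57Bl/6Babr, collected daily from E4.5 to E6.5, when the epiblast leaves naive pluripotency. RNA had been read by Smart-seq2 from the same cells whose DNA was bisulfite sequenced, and the DNA methylation of these cells is not analysed here. The labels give 91 cells from 5 embryos at E4.5, 80 cells from 1 embryo at E5.5 and 93 cells from 2 embryos at E6.5. No embryo was treated or mutated. Trophectoderm had been taken off at E4.5 by immunosurgery, and extraembryonic tissue had been pulled or dissected away at E5.5 and E6.5. The comparison asks in which cells, and at which stage, reads of germline genes are present or missing over the days when the genome gains methylation.

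In somatic cells the promoters of many germline genes carry dense methylation, placed mainly by DNMT3B and DNMT3A around implantation, while primordial germ cells later lose it. Before methylation arrives, a repressive complex called PRC1.6, with E2F6, PCGF6, MGA, MAX and L3MBTL2 among its subunits, occupies many of the same promoters. E2F6 binds sites of the E2F type, and MGA with MAX binds the E-box CACGTG. All 10 genes are autosomal. Chromosome 6 holds Tuba3a (chr6:125278274-125286042, minus strand, GRCm38), Tuba3b (chr6:145615757-145621479, plus) and Asz1 (chr6:18050964-18109061, minus). Hormad1 (chr3:95559677-95587671, plus) and Slc25a31 share chromosome 3, and Dazl lies at chr17:50279395-50293636 (minus). The genes differ in what they do. DAZL binds RNA and controls translation in germ cells. HORMAD1 and SYCP3 are parts of the chromosome axis in meiosis. DDX4 (an RNA helicase), MAEL and ASZ1 act in the piRNA pathway, which silences transposons in the germline. TUBA3A and TUBA3B are testis alpha-tubulins, and SLC25A31 is the ADP/ATP carrier of the mitochondria of sperm. TEX19.1 acts in control of retrotransposons and is known from germ cells, pluripotent cells and the placenta.

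The promoters of 6 genes are shown for reference, and no comparison of reads uses them. Tuba3a, Hormad1 and Dazl gave the clearest differences between stages, Tuba3b is the near copy of Tuba3a, Ddx4 is the member with the most CpG, and Tex19.1 had reads in most cells at E6.5. Each is 300 bases from RefSeq (GRCm38.p6), 250 before the annotated start of the gene and 50 after it, on the strand of the gene. Capitals mark TTCCCGCC or its reverse GGCGGGAA (an E2F-type site) and CACGTG (the E-box).

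Tuba3a, chr6:125286032-125286331, minus strand: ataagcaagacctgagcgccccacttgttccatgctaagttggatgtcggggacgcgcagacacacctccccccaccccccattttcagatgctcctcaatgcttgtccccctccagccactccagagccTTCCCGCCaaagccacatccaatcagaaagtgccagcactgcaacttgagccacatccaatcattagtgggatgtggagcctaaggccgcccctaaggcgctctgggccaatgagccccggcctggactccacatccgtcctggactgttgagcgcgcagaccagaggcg

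Tuba3b, chr6:145615713-145616012, plus strand: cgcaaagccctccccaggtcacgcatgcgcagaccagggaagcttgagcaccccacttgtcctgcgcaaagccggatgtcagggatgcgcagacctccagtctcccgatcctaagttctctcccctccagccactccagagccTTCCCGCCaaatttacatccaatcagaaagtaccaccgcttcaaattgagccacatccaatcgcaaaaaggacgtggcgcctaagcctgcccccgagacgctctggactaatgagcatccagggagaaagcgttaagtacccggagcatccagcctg

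Hormad1, chr3:95559427-95559726, plus strand: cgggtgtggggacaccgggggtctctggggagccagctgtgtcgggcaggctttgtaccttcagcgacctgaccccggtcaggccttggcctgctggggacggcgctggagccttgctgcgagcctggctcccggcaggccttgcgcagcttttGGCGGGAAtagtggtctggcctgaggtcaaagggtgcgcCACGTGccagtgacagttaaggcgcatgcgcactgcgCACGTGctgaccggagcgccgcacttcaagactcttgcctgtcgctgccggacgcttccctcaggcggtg

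Ddx4, chr13:112652261-112652560, minus strand: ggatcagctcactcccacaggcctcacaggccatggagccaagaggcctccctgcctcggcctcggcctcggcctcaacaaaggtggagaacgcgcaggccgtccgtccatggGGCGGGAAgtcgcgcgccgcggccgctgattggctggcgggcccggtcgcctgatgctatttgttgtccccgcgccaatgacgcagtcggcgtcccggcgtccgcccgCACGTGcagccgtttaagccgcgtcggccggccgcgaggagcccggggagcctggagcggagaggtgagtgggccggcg

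Dazl, chr17:50293571-50293870, minus strand: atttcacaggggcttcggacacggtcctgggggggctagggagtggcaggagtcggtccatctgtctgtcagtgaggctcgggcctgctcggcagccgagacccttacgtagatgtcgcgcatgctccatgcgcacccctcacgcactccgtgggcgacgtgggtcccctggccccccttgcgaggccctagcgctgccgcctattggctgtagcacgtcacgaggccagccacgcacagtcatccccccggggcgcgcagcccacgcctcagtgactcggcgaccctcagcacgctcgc

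Tex19.1, chr11:121145893-121146192, plus strand: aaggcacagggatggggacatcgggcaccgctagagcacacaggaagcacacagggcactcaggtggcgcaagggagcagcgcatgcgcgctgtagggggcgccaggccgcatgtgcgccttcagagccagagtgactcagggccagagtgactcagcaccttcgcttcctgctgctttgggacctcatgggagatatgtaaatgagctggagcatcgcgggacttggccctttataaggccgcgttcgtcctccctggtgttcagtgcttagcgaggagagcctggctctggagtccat

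The E2F-type letters were found, on either strand, in the windows of 5 of the 10 members, against 2.19% of all 32851 promoters of the same length. Those 5 were Tuba3a, Tuba3b, Slc25a31, Hormad1 and Ddx4. The site began at -120 from the start in Tuba3a, at -107 in Tuba3b, at -96 in Hormad1 and at -137 in Ddx4. In Slc25a31 it began after the start, at 19. Tuba3a and Tuba3b are near copies that share the letters before the site. The E-box was also in 5 of the 10 (Mael, Slc25a31, Hormad1, Ddx4 and Sycp3), against 7.15% of all promoters. Both were in 3 members, Slc25a31, Hormad1 and Ddx4, against 0.213% of all promoters. No capital stands in the Dazl and Tex19.1 windows, which says only that these letters are not in this stretch. The members' windows held 12 to 38 CpG with a median of 19.5, where the median of all promoters was 7. Both sets of letters hold a CG, and the shares over all promoters were not matched for CpG. These matches are descriptions of letters, and none was tested as a binding site.

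Of the 264 cells, 217 had at least 50000 reads on genes and at least 2000 detected genes and were kept. They were 75 cells of E4.5 embryos, 59 of the E5.5 embryo and 83 of E6.5 embryos. Kept cells held 112008 to 8904445 reads, with medians of 918469, 1511811 and 1107378 at the 3 stages. The embryo was the replicate, and values are CPM (the reads of a gene over all reads on genes, scaled to a common total), after summing the reads of the cells of an embryo. At E4.5 the cells formed an epiblast-like cluster (25 cells, with 8 of 10 epiblast markers raised) and an endoderm-like cluster (50 cells, with 12 of 15 endoderm markers raised), each with cells of all 5 embryos. At E5.5, 8 cells in which the endoderm genes Amn, Apoa1, Cubn and Dab2 all reached 10 CPM were taken as endoderm-like and the other 51 as epiblast-like. At E6.5 the clusters were mesoderm-like (23 cells, all of embryo 2), endoderm-like (12 cells, 10 of them in embryo 1) and 1 that no marker list named (48 cells of both embryos). A cluster took the name of the marker list with most raised genes, and none at E6.5 was named epiblast-like. The mesoderm-like cluster had 7 of 8 mesoderm markers raised, but also 5 of 10 epiblast and 5 of 15 endoderm markers. Its epiblast markers summed to 2107 CPM with 1390 CPM of Pou5f1, a pluripotency factor, against 1391 CPM of these markers in the unnamed cells. The unnamed cells had 619 CPM of Pou5f1 in their summed reads, but also 44 CPM of Elf5, a trophoblast factor, and their leading genes included Prl8a2 and S100a6. Trophectoderm markers summed to 485 and 713 CPM in the unnamed cells of the 2 embryos, with 5 of 9 markers at 10 CPM or more and none at 0, against 19 to 48.5 CPM in the E4.5 epiblast-like cells. Endoderm markers summed to 5314 and 9910 CPM in the unnamed cells, with 10 of 15 at 10 CPM or more, against 1677 to 4781 CPM in the E4.5 epiblast-like cells, and by scores of the marker lists 23 of the 48 unnamed cells were nearer to endoderm and 25 to epiblast. E4.5 embryo 5 held 10 cells without a read of the Y-linked genes counted and 6 cells with 10 reads or more, among 18, which goes against the label of 1 embryo. Without embryo 5, the 3 calls between E6.5 and E4.5 given for all cells held. Each of the 3 stages has its own prefix in the labels, so a batch that follows the prefix and the stage cannot be told apart.

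In the cells of the epiblast-like classes several germline genes were read at once. At E4.5 an epiblast-like cell held a median of 3 members at 10 CPM or more, and 18 of 25 cells held at least 3. The E5.5 epiblast-like cells also had a median of 3, with at least 3 in 38 of 51 cells and up to 7 in a single cell. At E4.5 the endoderm-like cells had a median of 3 as well, with at least 3 in 28 of 50 cells. The later endoderm and all E6.5 classes held fewer. The 8 E5.5 endoderm-like cells had a median of 2 and no cell with 3, the unnamed E6.5 cells had a median of 1 with at least 3 in 4 of 48 cells, and the E6.5 endoderm-like cells had a median of 2 with at least 3 in 3 of 12 cells. Of the 23 mesoderm-like cells, 19 held none. When Tex19.1 and Sycp3 were set aside, a choice made after the data were seen, no member reached 10 CPM in 7 of 8 E5.5 endoderm-like cells, in 34 of 48 unnamed cells and in 23 of 23 mesoderm-like cells. This was so in 4 of 12 endoderm-like cells at E6.5 and 11 of 50 at E4.5, and in 2 of 25 epiblast-like cells at E4.5 and 3 of 51 at E5.5. Cells of 1 embryo are not replicates, and these counts are descriptions.

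**Figure D1:**
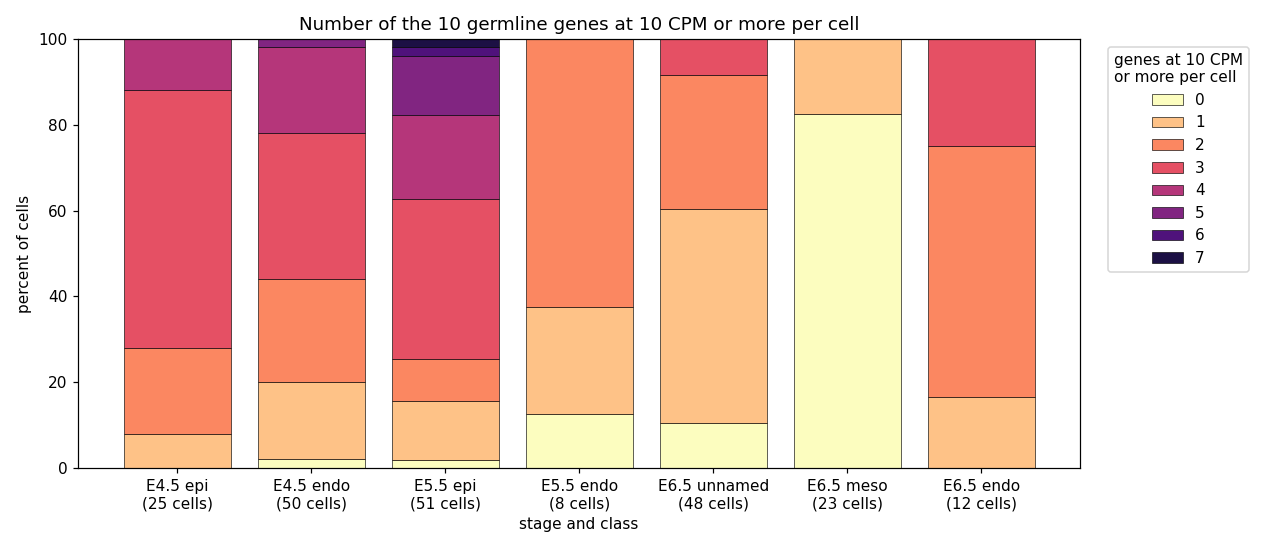
Number of the 10 germline genes at 10 CPM or more per cell, as the percent of cells in each class; stage and class run along the x axis with the number of cells. At least 3 genes were held by 38 of 51 epiblast-like cells at E5.5 and by 0 of 23 mesoderm-like cells at E6.5, of which 19 held none.

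Tuba3a showed the clearest difference between stages. Summed over all kept cells, it had 94.3, 77.9, 118, 65.3 and 29.6 CPM in E4.5 embryos 1 to 5, 94 CPM in the E5.5 embryo, and 1.59 and 0.537 CPM in the 2 E6.5 embryos. Every E4.5 embryo, in both of the sets that the labels separate (embryos 1 and 2, embryos 3 to 5), lay above both E6.5 embryos. The log2 fold change of E6.5 against E4.5 was -5.94 ± 0.752 (SE, 5 and 2 embryos, adjusted p = 0.000263, edgeR), and that of E6.5 against E5.5 was -6.42 ± 0.831 (adjusted p = 0.00178, edgeR). The first call held without any 1 of the 8 embryos. Reads of Tuba3a are less certain than those of other members, since 33.6% of the 50-base windows of its transcript also occur in other genes, 32.4% in Tuba3b. The values of Tuba3b lay mostly near 0, with 0 to 0.516 CPM in 4 E4.5 embryos and 11.2 CPM in embryo 4, 7.36 CPM at E5.5, and 0.0928 and 0 CPM at E6.5 (log2 fold change of E6.5 against E4.5 -5.47 ± 2.89, adjusted p = 0.278, edgeR).

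Hormad1, needed for pairing of chromosomes in meiosis, had its highest value in the E5.5 embryo and was near 0 at E6.5. All kept cells gave 11.9, 6.05, 16.9, 53.6 and 5.36 CPM in E4.5 embryos 1 to 5, 166 CPM at E5.5, and 0.491 and 1.20 CPM at E6.5. The E5.5 value lay above all E4.5 embryos, but this difference did not pass the test (log2 fold change 3.28 ± 0.853, adjusted p = 0.0690, edgeR). Against E5.5 the level at E6.5 fell by 7.62 on the log2 scale (SE 1.29, adjusted p = 0.0126, edgeR), and against E4.5 it fell by 4.34 (SE 1.03, adjusted p = 0.0199, edgeR). The call of the last comparison was lost without E6.5 embryo 1 (log2 fold change -3.84) or 2 (-5.07). Without the E5.5 embryo, which is in neither group of that comparison, the adjusted p was 0.0533 (edgeR). The call against E5.5 was lost without E6.5 embryo 1 (adjusted p = 0.139) or 2 (0.0968). The Hormad1 transcript shares 27.2% of its 50-base windows with other genes, mainly Gm15529.

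Dazl differed widely between embryos of 1 stage. It had 5.03, 78.6, 51.9, 49.3 and 3.66 CPM in E4.5 embryos 1 to 5, 40.2 CPM at E5.5, and 0.212 and 0.632 CPM at E6.5, so both E6.5 embryos lay below all earlier ones. The fold change of E6.5 against E4.5 on the log2 scale was -6.31 ± 1.36 (adjusted p = 0.0124, edgeR), and the call was lost without E6.5 embryo 1 (adjusted p = 0.125) or embryo 2 (0.0808). Against E5.5 it was -6.57 ± 1.48 (adjusted p = 0.0917, edgeR). At E5.5 a single epiblast-like cell held 75.4% of all Dazl reads of its class, and 12 of the 51 cells reached 10 CPM.

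The other 7 members were not called between stages over all cells by edgeR, while DESeq2 called Asz1 at E5.5 and Asz1 and Tex19.1 at E6.5 lower than at E4.5. In the piRNA pathway, Asz1 ranged from 4.07 to 30.004 CPM at E4.5, had no read in any of the 59 kept E5.5 cells, and had 1.27 and 0 CPM at E6.5 (E5.5 against E4.5, adjusted p = 0.0973, and E6.5 against E4.5, adjusted p = 0.137, edgeR). Mael showed the other order, with at most 0.263 CPM in any E4.5 embryo, 5.15 CPM in the E5.5 embryo and no more than 0.146 CPM in either E6.5 embryo (E5.5 against E4.5, adjusted p = 0.241, edgeR). Ddx4 had 2.89 to 32 CPM at E4.5, 6.69 CPM at E5.5, and 4.27 and 1.5 CPM at E6.5, ranges that overlap. Sycp3 was spread from 2.37 to 354 CPM over the E4.5 embryos, and the values at E5.5 (79.2 CPM) and E6.5 (24.7 and 16.3 CPM) lay inside that range. Without E4.5 embryo 5 the range was 2.37 to 29.2 CPM, with the E5.5 value above it, and the log2 fold change of E6.5 against E4.5 went from -1.89 (adjusted p = 0.481) to 0.92 (adjusted p = 0.523, edgeR). Tex19.1 had 90.2 to 169 CPM at E4.5, 76.9 CPM at E5.5, and 60.4 and 44.2 CPM at E6.5, with no overlap and a log2 fold change of E6.5 against E4.5 of -1.04 ± 0.393 (adjusted p = 0.134, edgeR). Slc25a31 reached 14.4 CPM at E5.5 against a highest value of 2.71 CPM in E4.5 embryos and 0.268 CPM in E6.5 embryos, and 86.7% of its reads in the E5.5 epiblast-like cells came from 1 cell.

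Over all kept cells, 3 of the 10 members passed the test of edgeR between E6.5 and E4.5, all lower at E6.5. There edgeR called 6.56% of 15358 genes, and DESeq2 called 5 of the 10 members and 1867 genes in all. The median log2 fold change was -3.12 over the members, 9 of which were lower, and 0.07 over all genes. Between E6.5 and E5.5, 2 members were called where the share over all genes was 0.384%, with a median of -5.55 for the members and 0.25 for all genes. Between E5.5 and E4.5 no member was called by edgeR, where 1.77% of all genes were, and the medians were 0.37 and -0.10. DESeq2 called 2 of the 10 there, Hormad1 and Asz1, and 1238 genes in all. An unadjusted p under 0.05 in edgeR was reached by 4 of the 10 and by 2329 of the 15358 genes. The 3 comparisons share their embryos, and a low count filter kept all 10 members in each. Since the members were chosen with earlier results of these data known, their counts and medians beside all genes are descriptions. With 1 embryo at E5.5, its spread was assumed to be like that of the other embryos.

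**Figure D2:**
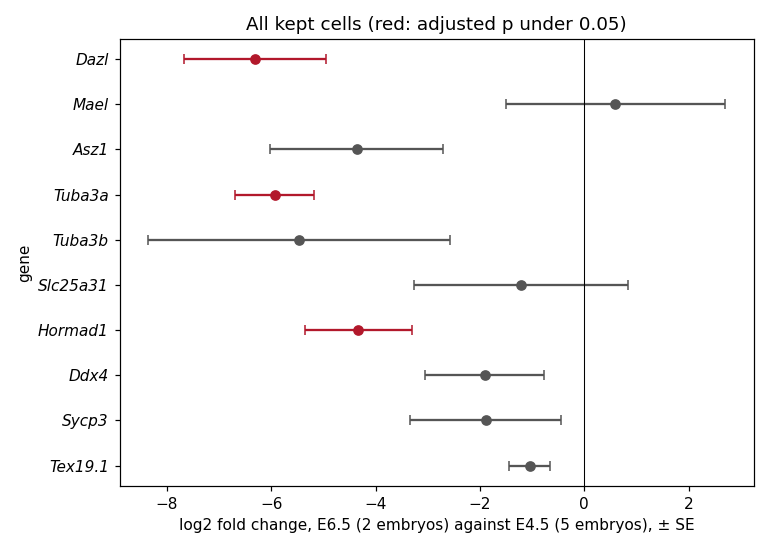
Log2 fold change of each germline gene at E6.5 (2 embryos) against E4.5 (5 embryos), over all kept cells, on the x axis with its standard error; genes on the y axis, and red marks an adjusted p under 0.05 (edgeR). Dazl (-6.31), Tuba3a (-5.94) and Hormad1 (-4.34) are red, and 9 of 10 genes lie below 0.

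Within the E4.5 embryos, Tex19.1 and Tuba3a were lower in the endoderm-like than in the epiblast-like cells by edgeR, and both were read in both classes (Tex19.1 in 44 of 50 and 24 of 25 cells, Tuba3a in 23 of 50 and 19 of 25). Tex19.1 had 279, 169, 247, 96.3 and 294 CPM in the epiblast-like cells of embryos 1 to 5 (217 ± 83 CPM, mean ± SD) and 99.3, 49.8, 60.4, 88.8 and 47.7 CPM in the endoderm-like cells (69.2 ± 23.5 CPM). The log2 fold change, with the embryo as a block, was -1.73 ± 0.406 (adjusted p = 0.00359, edgeR), lower in 5 of 5 embryos, and the call was lost with limma on log2(mean CPM + 1) (adjusted p = 0.0771). Tuba3a had 68.6, 121, 154, 292 and 74.9 CPM in epiblast-like cells and 110, 27.5, 77.8, 12.6 and 19.4 CPM in endoderm-like cells, lower in 4 of 5 embryos (log2 fold change -1.84 ± 0.573, adjusted p = 0.0348, edgeR). That call was lost without embryo 2 (adjusted p = 0.125), 4 (0.308) or 5 (0.0883), without the embryo as a block (0.0675), and with limma (0.214). A single cell held 87.9% of the Tuba3a reads and 96.6% of the Hormad1 reads in the 6 epiblast-like cells of embryo 4, and without it the sums were 47.9 CPM of Tuba3a and 7.92 CPM of Hormad1.

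Other members had differences of one sign in every embryo without passing the test. Hormad1 had 29.8, 6.33, 17.6, 172 and 20.02 CPM in epiblast-like cells and 0.630, 5.72, 16.1, 26 and 2.07 CPM in endoderm-like cells (adjusted p = 0.0653, edgeR). Asz1 had no read in the epiblast-like cells of embryos 1, 2 and 5, 0.704 CPM in embryo 3 and 21.2 CPM in embryo 4, against 19.3, 13.7, 7.78, 21.9 and 36.7 CPM in endoderm-like cells (log2 fold change 5.42 ± 2.06, adjusted p = 0.101, edgeR). For Ddx4 the epiblast-like values were 0 in embryos 1, 2 and 5, 0.235 CPM in embryo 3 and 10.4 CPM in embryo 4, and the endoderm-like values were 12, 6.30, 9.85, 13.2 and 39.1 CPM (5.88 ± 2.05, adjusted p = 0.0660, edgeR). Sycp3 was higher in endoderm-like cells in 4 of 5 embryos (2.68 ± 0.924, adjusted p = 0.0625, edgeR), and its endoderm-like values ran from 1.05 to 35.8 CPM in 4 embryos with 419 CPM in embryo 5. Dazl showed no common direction, being higher in epiblast-like cells in 3 embryos and in endoderm-like cells in 2. Mael, Slc25a31 and Tuba3b were at or under 3.15 CPM in every class sum but for Tuba3b in the endoderm-like cells of embryo 4 (13.7 CPM). Between these classes edgeR called 2 of 10 members and 9.38% of 14987 genes. DESeq2 called 6 members and 2817 genes in all, and both edgeR calls were lost with limma. The members' median of 0.34, with Mael at its bound, stood beside 0.15 for all genes.

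**Figure D3:**
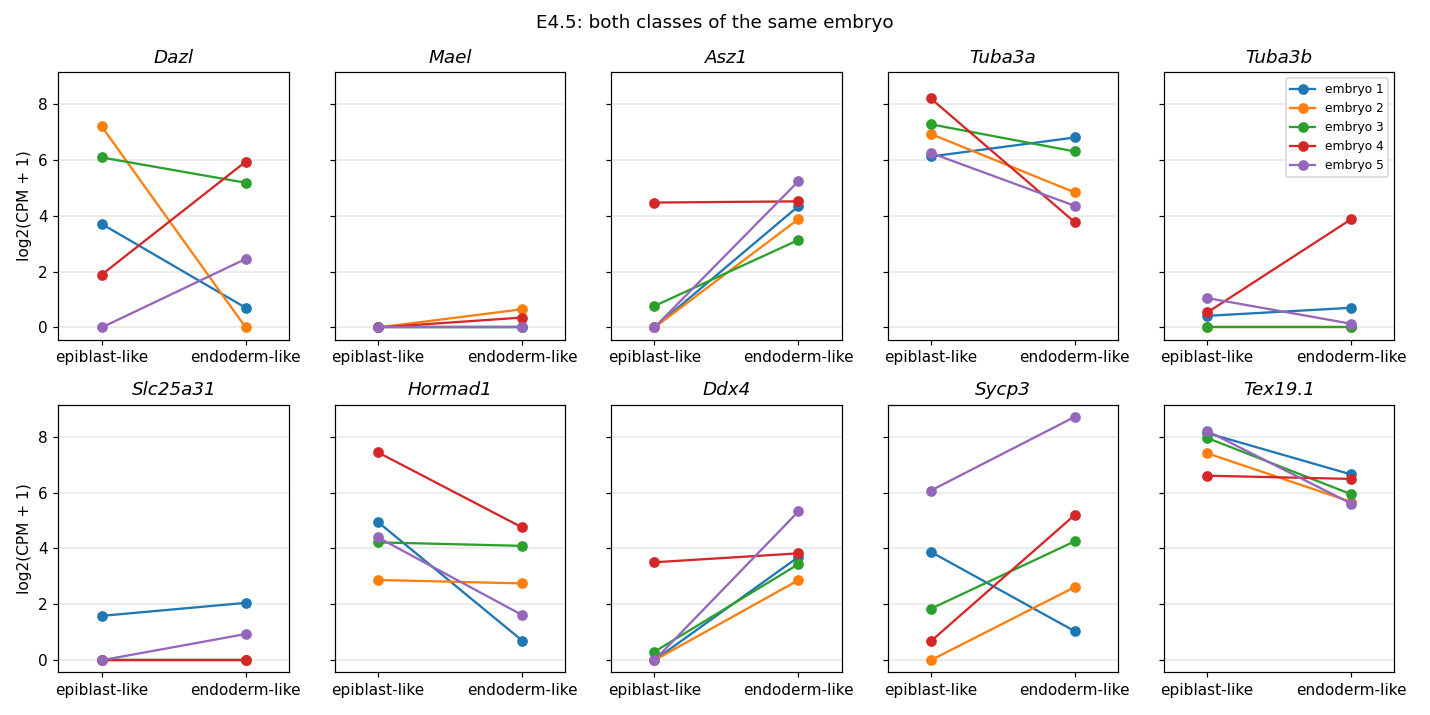
Levels of the 10 germline genes at E4.5 as log2(CPM + 1) on the y axis, with the epiblast-like and the endoderm-like cells of the same embryo joined by a line, 1 line for each of 5 embryos. Lines for Tex19.1 and Hormad1 fall in 5 of 5 embryos, and those for Asz1 and Ddx4 rise in 5 of 5.

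At E5.5 most members were read in 1 of the 2 classes of the single embryo. The 51 epiblast-like cells held reads of 9 members, among them Hormad1 (199 CPM), Tuba3a (113 CPM), Sycp3 (74.2 CPM), Tex19.1 (75.4 CPM) and Dazl (48.1 CPM). The 8 endoderm-like cells held no read of 7 members, although they were sequenced to a median of 1806100 reads each. Against the limit that 3 reads over the class allow (0.192 CPM), the epiblast-like cells had at least 1040-fold higher Hormad1, at least 587-fold higher Tuba3a, at least 251-fold higher Dazl and at least 32.2-fold higher Mael. Without the cell with most reads of the gene, these bounds were 879-fold for Hormad1, 519.5-fold for Tuba3a, 63.6-fold for Dazl and 21.2-fold for Mael. Sycp3 (104 CPM, 10 CPM or more in 6 of 8 cells) and Tex19.1 (84.9 CPM, 5 of 8 cells) were read in the endoderm-like cells, and Ddx4 was read in 1 cell (8.88 CPM). With 1 embryo, these differences have no replicate check. The bounds take reads as independent, while the reads of a gene lay together in few cells. Since 0 of 8 cells had a read, shares up to 37.5% (3 of 8) are possible, and the endoderm-like cells had fewer detected genes (median 4224 against 5599). Dazl was read in 14 and Mael in 10 of the 51 epiblast-like cells, shares under that limit. For Dazl and Mael the share of cells therefore shows no difference between the classes. In the endoderm-like cells none of the 15 endoderm markers, 4 of which had chosen the cells, was at 0, and the epiblast markers summed to 236 CPM against 3095 CPM in the epiblast-like cells. In the latter 7 endoderm markers were at 0, among them Gata4, Gata6 and Sox17.

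**Figure D4:**
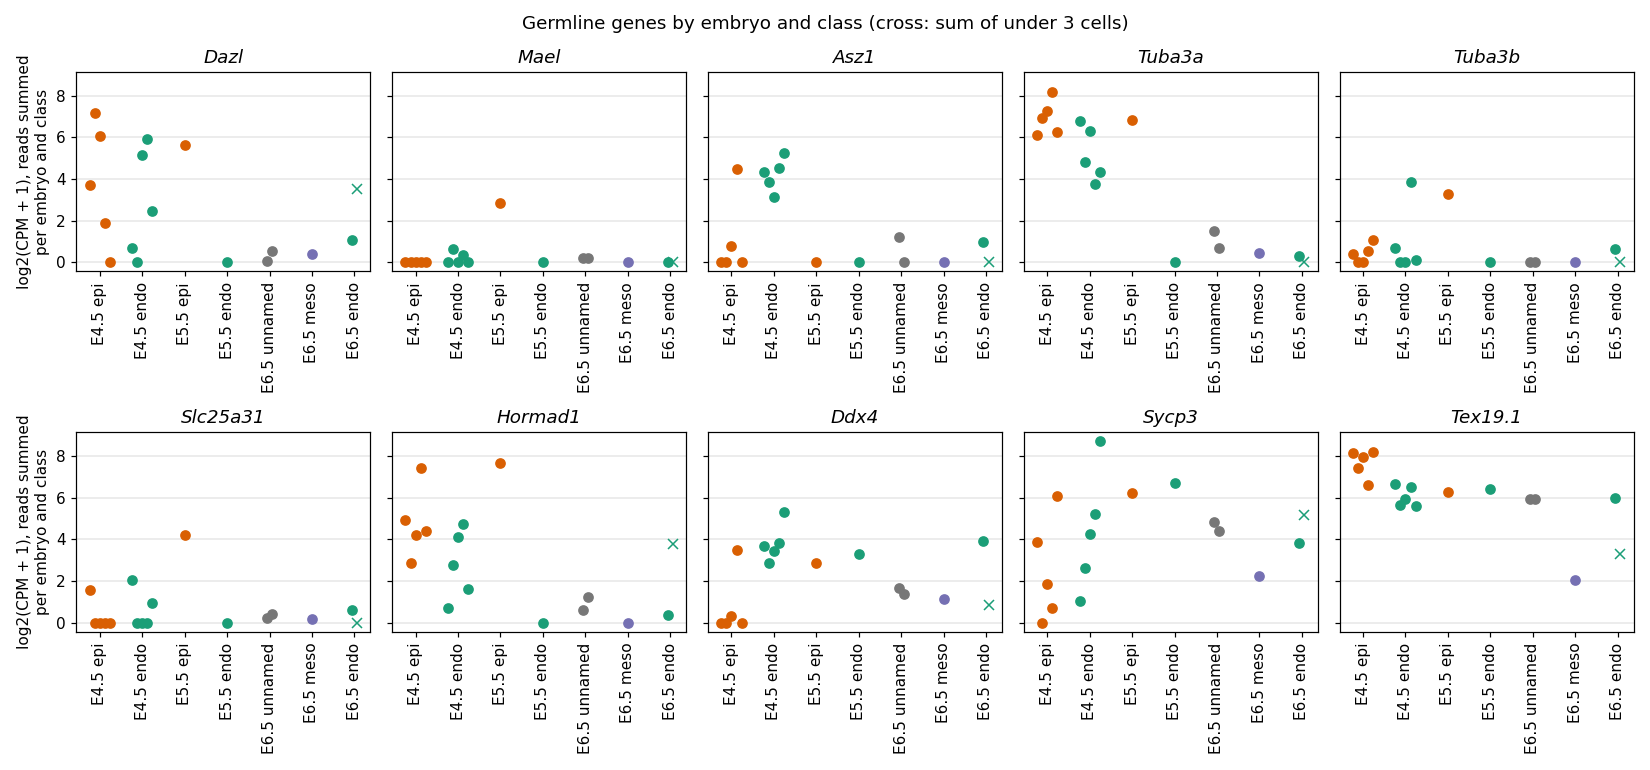
Level of each germline gene as log2(CPM + 1) on the y axis by stage and class on the x axis, where a point is the summed reads of 1 embryo and class and a cross is a sum of under 3 cells. Tuba3a lies between 68.6 and 292 CPM in the E4.5 and E5.5 epiblast-like sums, and at 0 with Hormad1 in the E5.5 endoderm-like cells, while Tex19.1 is at 59.9 and 60.1 CPM in the unnamed E6.5 sums.

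Between E4.5 and E5.5 the reads of Tuba3a went to 0 in endoderm-like cells and not in epiblast-like cells. The E5.5 endoderm-like class was 8 cells of 1 embryo, so a share of cells with reads is not excluded. At E4.5 a single cell held 50.8, 75, 32.7, 55.1 and 91.6% of the endoderm-like Tuba3a reads in embryos 1 to 5. In endoderm-like cells Tuba3a went from 12.6 to 110 CPM in 5 embryos to no read at E5.5, at least 143-fold lower (at least 105-fold without embryo 1, adjusted p = 0.00325, edgeR). No read was found at E5.5 of Dazl, Asz1 or Hormad1, and none of them was called (adjusted p = 0.178, 0.208 and 0.0695, edgeR). At E4.5 the endoderm-like values of the 5 embryos ran from 0 to 60.2 CPM for Dazl, from 7.78 to 36.7 CPM for Asz1 and from 0.630 to 26 CPM for Hormad1. Against summed E4.5 cells, Dazl was at least 171-fold lower but at least 38.9-fold without embryo 4. The bound of Hormad1 was 75.3-fold, and 19.8-fold without embryo 4, and that of Asz1 was 134-fold, and 103-fold without embryo 5. Tuba3a was the 1 member of 10 called there by edgeR, where 6.61% of 14987 genes were. DESeq2 called 4 members lower (Tuba3a, Hormad1, Asz1 and Dazl), where it called 2641 genes lower in all. In this comparison the median over all genes in edgeR was itself -1.09, so that these values are read against that shift. The members' median was -3.34 with the genes at 0 set to their bounds. It lies between the bounds of Tuba3b (34.7-fold) and Slc25a31 (2.97-fold) and rests on embryo 4. Without that embryo the E4.5 value of Tuba3b (0.161 CPM) was under the limit of 0.192 CPM and gave no bound. In epiblast-like cells no member was called by edgeR, where 0.534% of genes were. DESeq2 called 1 member there, Asz1, and 490 genes in all. An unadjusted p under 0.05 in edgeR was reached by 2 members and by 1563 of the 14987 genes. Tuba3a, at 113 CPM in the E5.5 cells, lay within the E4.5 range of 68.6 to 292 CPM, and Hormad1, at 199 CPM, lay above the E4.5 range of 6.33 to 172 CPM (adjusted p = 0.637, edgeR). The difference between these 2 changes, a comparison chosen after the data were seen, passed the test for Tuba3a (adjusted p = 0.0140) and not for Hormad1 (0.0796) or Dazl (0.288, edgeR), with 2.21% of all genes called.

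Tuba3a, Hormad1 and Dazl were low in the unnamed cells at E6.5. In the unnamed cells of embryos 1 and 2, Tuba3a had 1.87 and 0.616 CPM, Hormad1 0.529 and 1.32 CPM, and Dazl 0.0320 and 0.484 CPM. Against the E4.5 epiblast-like cells, Tuba3a fell by 6.62 (SE 1.09, adjusted p = 0.000889) and Hormad1 fell by 5.58 (SE 1.59, adjusted p = 0.0480, edgeR) on the log2 scale. These were 2 of 10 members, where edgeR called 4.4% of all genes. DESeq2 called 4 members, with Dazl and Tex19.1, and 1217 genes in all. The Hormad1 call was lost when E4.5 embryo 3 (adjusted p = 0.0516) or 4 (0.0949), the E5.5 embryo (0.0662) or E6.5 embryo 1 (0.320) or 2 (0.241) was left out. Dazl was at -7.22 ± 2.54 (adjusted p = 0.115) and Tex19.1 at -1.67 ± 0.535 (adjusted p = 0.0792, edgeR). Against the E5.5 epiblast-like cells, Tuba3a was again lower (log2 fold change -6.36 ± 1.16, adjusted p = 0.00875, edgeR), 1 of 10 members where 0.487% of genes were called, and this call needed both E6.5 embryos (adjusted p = 0.0543 without embryo 1 and 0.140 without embryo 2). With the classes of every stage taken from marker scores, and the E6.5 cells scored as epiblast in place of the unnamed cells, Tuba3a was not called against E5.5 (adjusted p = 0.0666), and against E4.5 Tuba3a (-5.66, adjusted p = 0.00329) and Hormad1 (-5.44, adjusted p = 0.0326, edgeR) were. In the endoderm-like cells of E6.5 embryo 1, Tuba3a was at 0.231 CPM, a log2 fold change against E4.5 endoderm-like cells of -7.67 ± 1.68 (adjusted p = 0.0242, edgeR), the only member called where 1.01% of genes were. With 2 such cells, E6.5 embryo 2 was not in this sum.

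Over all 83 kept cells at E6.5, Sycp3 had a read in 66, Tex19.1 in 65 and Ddx4 in 32, and each other member in 1 to 15. Tex19.1 had 59.9 and 60.1 CPM in the unnamed cells of the 2 embryos and 62.7 CPM in the endoderm-like cells of embryo 1, with 10 CPM or more in 33 of 48 and 11 of 12 cells, but 3.13 CPM in the mesoderm-like cells, where 2 of 23 cells reached 10 CPM. The unnamed and mesoderm-like cells differed 19.2-fold in Tex19.1 and 6.51-fold in Sycp3, values that were not tested, and only embryo 2 held mesoderm-like cells. Sycp3 had 27.1 and 20.5 CPM in unnamed cells, 13 CPM in endoderm-like cells and 3.73 CPM in mesoderm-like cells. Ddx4 had 14.2 CPM in the endoderm-like cells, with 10 CPM or more in 7 of the 12 cells of both embryos, and 1.63 to 2.19 CPM in the unnamed cells. Among the unnamed cells, split after the data were seen, the 28 cells with at least 10 CPM of Elf5 had a median of 59.2 CPM of Tex19.1, and the other 20 cells had 9.19 CPM, while the summed reads gave 76.7 and 37.8 CPM (70.2 and 48.5 CPM in embryo 1). In embryo 1, 15 of 17 and 5 of 9 of these cells reached 10 CPM of Tex19.1, and in embryo 2, 9 of 11 and 4 of 11. The trophectoderm markers summed to 608 CPM in the mesoderm-like cells, and to 617 CPM in the unnamed cells over both embryos, but 3 of the 9 markers reached 10 CPM in the former and 5 in the latter. Elf5 was at 1.69 CPM in the mesoderm-like and 44 CPM in the unnamed cells, and Tfap2c, another trophoblast factor, at 1.023 and 22.2 CPM. The part of these genes in the Tex19.1 values was not tested.

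**Figure D5:**
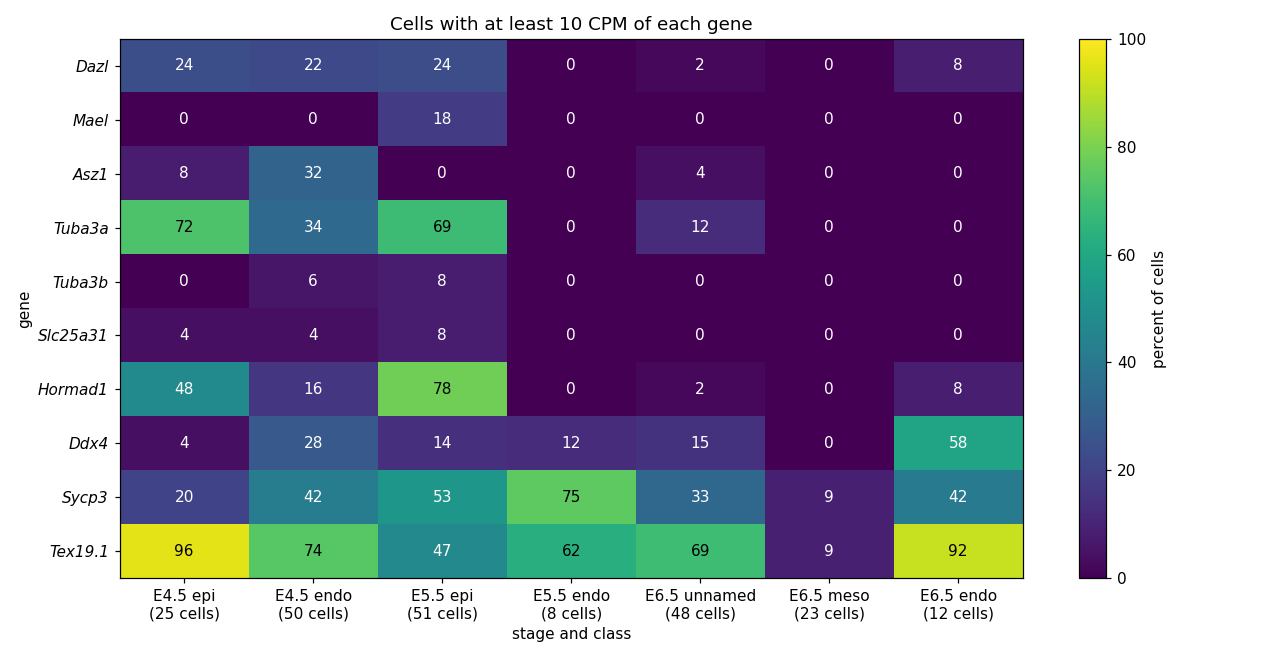
Percent of cells with at least 10 CPM of each germline gene (rows, the y axis) in each stage and class (columns, the x axis, with the number of cells), from 0 (dark) to 100 (bright). Hormad1 reached 10 CPM in 78.4% of epiblast-like cells at E5.5 and 2.08% of unnamed cells at E6.5, and Tex19.1 in 68.8% and 8.70% of unnamed and mesoderm-like cells at E6.5.

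The share of cells behind these sums had wide limits. Tuba3a reached 10 CPM in 72% of epiblast-like cells at E4.5 (exact binomial 95% interval 50.6 to 87.9%), in 68.6% at E5.5 (54.1 to 80.9%) and in 12.5% of unnamed cells at E6.5 (4.73 to 25.2%). For Hormad1 the shares were 48% (27.8 to 68.7%), 78.4% (64.7 to 88.7%) and 2.08% (0.0527 to 11.1%). For cells with any read, thinned to 50000 reads each, Hormad1 gave 43.4%, 72.8% and 3.26% in the same order, and unthinned 76%, 82.4% and 22.9%. The mesoderm-like cells, which had reads of Pou5f1 and Nanog in 23 of 23 cells, gave a read of Hormad1 in 0 of 23 cells, which allows up to 13.04% (3 of 23), and of Tuba3a in 3 of 23, at a median of 712549 reads per cell against 1401130 in the unnamed cells. Across cells of a class, Pearson r between pairs of members ran from -0.24 to 0.35 in E4.5 endoderm-like cells (median -0.04, 28 pairs), from -0.27 to 0.44 in E4.5 epiblast-like cells (0.06, 10 pairs) and from -0.25 to 0.35 in E5.5 epiblast-like cells (-0.01, 36 pairs), values of sparse reads that are given as descriptions.

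Other germline genes, taken from lists of meiosis, piRNA and further germline genes chosen with earlier results known, held some genes that fell by E6.5. Among all genes tested over all cells, 6.56% were called between E6.5 and E4.5 and 2.61% were called lower. Of 25 meiosis genes tested, 3 were lower in E6.5 embryos over all cells than in E4.5 embryos and none was higher, namely Smc1b, a meiotic cohesin (log2 fold change -4.97 ± 1.22, adjusted p = 0.0241, edgeR), Stag3, another cohesin subunit (-4.28 ± 0.986), and Hormad2, the relative of Hormad1 (-4.28 ± 0.900). The list's median was -0.65, against 0.07 for all genes. Of 15 piRNA genes 1 was lower, Tex15 (-2.34 ± 0.550), and none was higher, with a median of -0.20, and this share is near that over all genes. Of 36 further germline genes 7 were lower and 1 higher, with a median of -1.55. The lower ones included Rpl10l, a testis ribosomal protein gene (-6.62 ± 0.594, adjusted p = 1.52e-05), and Zp3, an egg coat gene (-8.41 ± 1.64, adjusted p = 0.00668, edgeR). Rpl10l had 211 to 851 CPM in E4.5 epiblast-like cells, 75.6 CPM in E5.5 epiblast-like cells and 0.946 to 2.48 CPM in the E6.5 classes, and it was also lower in the unnamed cells than in E5.5 epiblast-like cells (-5.32 ± 0.783, adjusted p = 0.00239, edgeR). The one that was higher, 1700013H16Rik, had no read in any E4.5 sum and 0.539 to 9.09 CPM at E6.5.

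At E4.5 genes of the piRNA pathway were called in both directions between the classes of the same embryos, where 9.38% of all genes were called. Tex15 (5.22 ± 1.40, adjusted p = 0.0118) and Fkbp6 (3.4 ± 0.859, adjusted p = 0.00720, edgeR) were higher in endoderm-like cells, and Tdrd12 (-7.35 ± 1.06, adjusted p = 4.93e-06) and Gtsf1 (-5.30 ± 1.45, adjusted p = 0.0141, edgeR) were lower, among 13 tested. Tdrd12, for a tudor protein of the pathway, had 21.6 to 136 CPM in epiblast-like cells and at most 2.36 CPM in endoderm-like cells. Rhox5, an X-linked homeobox gene, was higher in endoderm-like cells at E4.5 (1.43 ± 0.355, adjusted p = 0.00625, edgeR), rose further in endoderm-like cells at E5.5 (2.37 ± 0.584, adjusted p = 0.0173, edgeR), and was at 1532 CPM there against 19.5 CPM in the epiblast-like cells of the same embryo. At E6.5 it was at 769 and 505 CPM in the unnamed cells, higher than in the epiblast-like cells of E4.5 (2.56 ± 0.486, adjusted p = 0.00302) and of E5.5 (5.15 ± 1.01, adjusted p = 0.0160, edgeR), and at 41.8 CPM in the mesoderm-like cells.

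The methyltransferases and PRC1.6 subunits were read in the same sums. Dnmt3b rose from 255 to 430 CPM in E4.5 epiblast-like cells to 1695 CPM at E5.5 (log2 fold change 2.30 ± 0.358, adjusted p = 0.00419, edgeR), and was at 955 and 1347 CPM in the unnamed E6.5 cells (1.86 ± 0.298 against E4.5, adjusted p = 0.000617, edgeR). In endoderm-like cells it was at 341 to 613 CPM at E4.5 and 343 CPM at E5.5, a change that differed from that in epiblast-like cells (difference -2.50 ± 0.608, adjusted p = 0.0324, edgeR). Dnmt3l, the cofactor of the de novo enzymes, had no read in the E5.5 endoderm-like cells (adjusted p = 6.14e-05, edgeR) and was at 50.4 CPM in the epiblast-like cells of that embryo, after 219 to 623 CPM in epiblast-like and 79.4 to 360 CPM in endoderm-like cells at E4.5. It was at 5.51 and 16.1 CPM in the unnamed cells (-5.24 ± 0.692 against E4.5 epiblast-like cells, adjusted p = 7.55e-05, edgeR). Of 14 genes of DNA methylation, Dnmt3b was higher and Dnmt3l and Tet2 were lower in E6.5 than in E4.5 embryos over all cells, where 6.56% of all genes were called. Dnmt3a, Dnmt1, Uhrf1, E2f6, Pcgf6 and Mga were called in none of the 10 comparisons of edgeR. L3mbtl2 was lower in endoderm-like than in epiblast-like cells at E4.5 (-2.19 ± 0.429, adjusted p = 0.000459), and lower in the unnamed E6.5 cells than in E4.5 epiblast-like cells (-1.97 ± 0.565, adjusted p = 0.0485, edgeR). A list made for PRC1.6 held 19 genes, not all of them subunits. Of these, 6 were lower and 1, Yaf2, was higher in endoderm-like cells at E4.5, where 9.38% of all genes were called and 4.18% were called lower. The lower ones included L3mbtl2, and also Cbx1 (-1.78 ± 0.287) and Trim28 (-1.72 ± 0.273), which are not among the subunits named above. No gene of this list was called between stages over all cells.

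The genes whose log2(CPM + 1) over the 16 sums per embryo and class was most like the mean of the 10 members were Gm14124 (Pearson r = 0.876), Zfp936 (0.829), Zfp985 (0.821), Zfp984 (0.806) and Gm21411 (0.802), among 7998 genes with a mean of at least 10 CPM. Sums of 1 embryo share its libraries, and these values are descriptions. Zfp985, for example, had 73.8 to 390 CPM in the E4.5 sums and 164 CPM in the E5.5 epiblast-like cells, but 5.18 CPM in the E5.5 endoderm-like cells and 0.421 to 4.52 CPM in the E6.5 sums.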

How the data were processed

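RNA of single embryo cells had been amplified by Smart-seq2 and read single-end, without molecular identifiers. The authors deposited whole-number counts of reads per gene, not normalized. The submitters' processing notes name HISAT2 2.1.0, featureCounts and GRCm38, and the annotation is not given in the sources used here. Stage and embryo came from the labels, which name 5 embryos at E4.5 where the study's methods give 4. Symbols matched 21907 of 22084 identifiers. Doublets were not called. Of the cells, those with 50000 reads and 2000 genes were kept.

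Counts were summed per embryo, or per embryo and class with at least 3 cells, and the sums went into edgeR 4.0.16 with TMM scaling and a low count filter (quasi-likelihood test, Benjamini-Hochberg adjustment over all genes, threshold 0.05). All groups were in 1 fit, the class comparison having the embryo as a block. The E5.5 contrasts have 1 embryo. DESeq2 1.42.0 and limma 3.58.1, the latter on log2(mean CPM + 1) over cells, were alternatives. Scripts were tested on simulated data. Intervals are Clopper-Pearson and, like the floor of 3 counts, cover counting error only.

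Classes at E4.5 and E6.5 came from Leiden clustering (scanpy 1.11.5, 2000 variable genes without the germline and regulator lists, resolution 0.5), a cluster being named for the list with most raised markers, at least 3. Over 20 seeds the E4.5 partition recurred in 20 and that of E6.5 in 13, and another normalization gave another E6.5 partition. Since no E6.5 cluster was named epiblast-like, the planned class comparison within E6.5 was not run, and the unnamed cells took its place in the stage comparisons.

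Members and gene lists were chosen with earlier results of these data known. All 10 members are named, with up to 5 genes per other list and direction with the largest change past the threshold, the regulators Dnmt3a, Dnmt3b, Dnmt3l, Dnmt1, Uhrf1, E2f6, L3mbtl2, Pcgf6 and Mga, and the 5 genes most like the members. The difference between classes from E4.5 to E5.5, the share at 10 CPM and the split by Elf5 are choices made with these data already seen.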

Additional observations from a re-analysis of the deposited data

Results flagged for a closer look

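Among the 5 embryos at E4.5, 12 of 29 sets of values of the members held 1 embryo that stood apart from the other 4, where chance sets about 1 in 20 apart among independent values of normal spread. These values are skewed, and the sets over all cells hold those of the classes, so 12 was not tested against that rate. In the epiblast-like cells of embryo 4, Hormad1 was at 172 CPM (6.33 to 29.8 CPM in the others), Asz1 at 21.2 CPM (0 to 0.704 CPM) and Ddx4 at 10.4 CPM (0 to 0.235 CPM), and 1 cell held 96.6% of those Hormad1 reads, 55.3% of the Asz1 reads and all of the Ddx4 reads, though not the same cell for the 3 genes. Over all cells of that embryo Hormad1 was at 53.6 CPM (5.36 to 16.9 CPM). Tuba3b was at 13.7 CPM in the endoderm-like cells of embryo 4 (0 to 0.630 CPM) and at 11.2 CPM over all its cells (0 to 0.516 CPM). Embryo 5, whose cells differ in Y-linked reads, stood apart in Sycp3, with 419 CPM in endoderm-like cells (1.05 to 35.8 CPM), 66.3 CPM in epiblast-like cells (0 to 13.7 CPM) and 354 CPM over all cells (2.37 to 29.2 CPM), and in Ddx4 in endoderm-like cells, with 39.1 CPM (6.30 to 13.2 CPM). Slc25a31 was at 2.01 CPM in the epiblast-like cells of embryo 1, with no read in the others, and at 2.71 CPM over all its cells (0 to 0.748 CPM).

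The change of Tuba3a from E4.5 to E5.5 differed between the classes by a test of the difference itself. The fitted difference, endoderm-like minus epiblast-like, was -12.41 on the log2 scale (adjusted p = 0.0140, edgeR). Since the E5.5 endoderm-like cells had no read of Tuba3a, its size depends on the prior count and is no bound.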

How the results depend on the processing

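Each alternative changed 1 choice, except that limma was run on log2(mean CPM + 1) over the cells of an embryo, which changes the test and the weight of each cell together, and comparisons with no class named are over all cells. Of the members' fold changes and their calls, 1067 values under an alternative kept direction and side of the threshold, 57 crossed it towards a call, 24 crossed it away from one and 42 had the other sign. None of the members concerned was called in the comparison in which its sign changed, and 1 value of the other sign passed the threshold, Sycp3 with the replicate block. The calls of Tuba3a for E6.5 against E4.5 in all cells kept their side under every alternative run, and Dazl there was lost with limma (adjusted p = 0.0719). Tex19.1 between classes at E4.5 was lost with limma (adjusted p = 0.0771). Of the shares of cells under an alternative, 210 stayed within their interval and 70 did not, 25 of them at 10 CPM, 24 when thinned, 17 at 5 reads or more and 4 with a stricter cell filter. With DESeq2, genes called numbered 1238 for E5.5 against E4.5 (292 up, 946 down, against 141 and 131 in edgeR), 1867 for E6.5 against E4.5 (840 up, 1027 down, against 607 and 401 in edgeR), 450 for E6.5 against E5.5 (309 up, 141 down, against 15 and 44 in edgeR), 490 for E5.5 against E4.5 in epiblast-like (51 up, 439 down, against 29 and 51 in edgeR), 1217 for unnamed against E4.5 epiblast-like (560 up, 657 down, against 441 and 218 in edgeR), 331 for unnamed against E5.5 epiblast-like (253 up, 78 down, against 39 and 34 in edgeR), 3128 for E5.5 against E4.5 in endoderm-like (487 up, 2641 down, against 300 and 691 in edgeR), 285 for E6.5 against E4.5 in endoderm-like (98 up, 187 down, against 111 and 40 in edgeR), 1611 for the difference (273 up, 1338 down, against 55 and 276 in edgeR) and 2817 for the classes at E4.5 (1618 up, 1199 down, against 780 and 626 in edgeR). With DESeq2, members called numbered 2 for E5.5 against E4.5, 5 for E6.5 against E4.5, 1 for E5.5 against E4.5 in epiblast-like, 4 for unnamed against E4.5 epiblast-like, 3 for unnamed against E5.5 epiblast-like, 4 for E5.5 against E4.5 in endoderm-like, 2 for the difference and 6 for the classes at E4.5. Without the filter on low counts, genes called numbered 748 for E5.5 against E4.5 (422 up, 326 down), 1692 for E6.5 against E4.5 (1043 up, 649 down), 219 for E6.5 against E5.5 (109 up, 110 down), 345 for E5.5 against E4.5 in epiblast-like (169 up, 176 down), 1219 for unnamed against E4.5 epiblast-like (839 up, 380 down), 238 for unnamed against E5.5 epiblast-like (148 up, 90 down), 1538 for E5.5 against E4.5 in endoderm-like (515 up, 1023 down), 396 for E6.5 against E4.5 in endoderm-like (285 up, 111 down) and 698 for the difference (154 up, 544 down). Without the filter on low counts, members called numbered 2 for E5.5 against E4.5, 3 for unnamed against E5.5 epiblast-like, 3 for E5.5 against E4.5 in endoderm-like and 3 for the difference. With a stricter cell filter, genes called numbered 585 for the difference (74 up, 511 down). With a stricter cell filter, members called numbered 1 for E5.5 against E4.5. With limma on log2(mean CPM + 1), genes called numbered 763 for E5.5 against E4.5 (451 up, 312 down), 161 for E6.5 against E5.5 (51 up, 110 down), 698 for E5.5 against E4.5 in epiblast-like (530 up, 168 down), 1476 for unnamed against E4.5 epiblast-like (1065 up, 411 down), 422 for unnamed against E5.5 epiblast-like (204 up, 218 down), 648 for E6.5 against E4.5 in endoderm-like (546 up, 102 down), 887 for the difference (181 up, 706 down) and 886 for the classes at E4.5 (513 up, 373 down). With limma on log2(mean CPM + 1), members called numbered 1 for E5.5 against E4.5, 1 for E5.5 against E4.5 in epiblast-like, 3 for unnamed against E5.5 epiblast-like, 2 for the difference and 0 for the classes at E4.5. With classes from marker scores, the E6.5 cells scored as epiblast took the place of the unnamed cells. Genes called then numbered 40 for these cells against E5.5 epiblast-like (17 up, 23 down) and 924 for E6.5 against E4.5 in endoderm-like (740 up, 184 down). With classes from marker scores, members called numbered 0 for E6.5 cells scored as epiblast against E5.5 epiblast-like and 4 for the classes at E4.5. Without the embryo as a block, members called numbered 1 for the classes at E4.5. With 1 embryo left out, genes called ranged over 215 to 320 for E5.5 against E4.5, 363 to 968 for E6.5 against E4.5, 38 to 70 for E6.5 against E5.5, 58 to 98 for E5.5 against E4.5 in epiblast-like, 220 to 671 for unnamed against E4.5 epiblast-like, 38 to 98 for unnamed against E5.5 epiblast-like, 772 to 1195 for E5.5 against E4.5 in endoderm-like, 104 to 155 for E6.5 against E4.5 in endoderm-like, 225 to 409 for the difference and 1015 to 1428 for the classes at E4.5, and members called over 0 to 1 for E5.5 against E4.5, 1 to 3 for E6.5 against E4.5, 1 to 3 for E6.5 against E5.5, 0 to 0 for E5.5 against E4.5 in epiblast-like, 1 to 2 for unnamed against E4.5 epiblast-like, 0 to 2 for unnamed against E5.5 epiblast-like, 1 to 1 for E5.5 against E4.5 in endoderm-like, 1 to 1 for E6.5 against E4.5 in endoderm-like, 1 to 2 for the difference and 1 to 3 for the classes at E4.5. The lowest counts of genes for E6.5 against E4.5 were without E6.5 embryo 2 (363) or 1 (431), and those for the unnamed against the E4.5 epiblast-like cells without embryo 1 (220) or 2 (244). For E6.5 against E5.5, the count was 38 without E6.5 embryo 2. Embryo numbers shared by E4.5 and E6.5 do not pair the embryos (correlations of deviations -0.02 and 0.02). With the replicate block, 797 genes were called for E6.5 against E4.5 in all cells (351 higher, 446 lower), Hormad1 lost its call (-3.26, adjusted p = 0.0745) Asz1 gained one (-5.25, adjusted p = 0.0186) and Sycp3 was called higher (2.60, adjusted p = 0.00129, against -1.89, adjusted p = 0.481). With a stricter cell filter, the sign changed for Dazl in E5.5 against E4.5 (from 0.25 to -1.50), Dazl in E5.5 against E4.5 in epiblast-like (from 0.21 to -1.58), Ddx4 in unnamed against E4.5 epiblast-like (from -0.03 to 0.0793), Tex19.1 in unnamed against E5.5 epiblast-like (from -0.21 to 0.24) and Sycp3 in E5.5 against E4.5 in endoderm-like (from 0.27 to -0.0416). With the replicate block, the sign changed for Sycp3 in E6.5 against E4.5 (from -1.89 to 2.60). With limma on log2(mean CPM + 1), the sign changed for Tuba3a in E5.5 against E4.5 in epiblast-like (from -0.26 to 0.0109), Slc25a31 in unnamed against E4.5 epiblast-like (from -0.54 to 0.32), Ddx4 in unnamed against E4.5 epiblast-like (from -0.03 to 1.002) and Ddx4 in E6.5 against E4.5 in endoderm-like (from -0.28 to 0.17). With classes from marker scores, the sign changed for Ddx4 against E4.5 epiblast-like (from -0.03 in unnamed cells to 4.83 in E6.5 cells scored as epiblast). It also changed for Mael in E6.5 against E4.5 in endoderm-like (from -4.45 to 0.29), Tex19.1 in E6.5 against E4.5 in endoderm-like (from -0.17 to 0.37) and Dazl in the classes at E4.5 (from -0.81 to 2.54). With DESeq2, the sign changed for Asz1 in the difference (from -2.07 to 3.35). With 1 embryo left out, values of either sign were given for Sycp3 in E5.5 against E4.5 (-0.28 to 2.83), Dazl in E5.5 against E4.5 (-0.0764 to 0.71), Ddx4 in E5.5 against E4.5 (-0.98 to 0.0797), Slc25a31 in E6.5 against E4.5 (-1.56 to 0.28), Sycp3 in E6.5 against E4.5 (-2.25 to 0.92), Dazl in E5.5 against E4.5 in epiblast-like (-0.12 to 1.36), Tuba3a in E5.5 against E4.5 in epiblast-like (-0.43 to 0.20), Slc25a31 in unnamed against E4.5 epiblast-like (-1.12 to 5.56), Asz1 in unnamed against E4.5 epiblast-like (-9.23 to 1.97), Ddx4 in unnamed against E4.5 epiblast-like (-0.35 to 4.88), Sycp3 in E5.5 against E4.5 in endoderm-like (-0.0434 to 3.05), Ddx4 in E5.5 against E4.5 in endoderm-like (-0.84 to 0.0996), Slc25a31 in E6.5 against E4.5 in endoderm-like (-0.93 to 0.83), Tuba3b in E6.5 against E4.5 in endoderm-like (-2.88 to 1.48), Ddx4 in E6.5 against E4.5 in endoderm-like (-0.48 to 0.46), Dazl in the classes at E4.5 (-2.53 to 1.13) and Tuba3b in the classes at E4.5 (-1.42 to 2.83). The planned comparison of classes within E6.5 gave no value. The causes of these changes were not tested. With 2 embryos at E6.5 and 1 at E5.5, the number of embryos limits the precision, as do the few reads behind Mael, Slc25a31 and Tuba3b.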
